A study of Mus musculus with 24 samples.

Results

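A set of 33 imprinted mouse genes was followed in E14 mouse embryonic stem cells (mESCs) after withdrawal of either PD03 or CHIRON from 2i + LIF on soft and stiff hydrogels. The genes were taken by symbol from a list of genes with parent-of-origin expression and not by their values. Earlier results of these data, in which Peg10 differed between soft and stiff hydrogels, were known at the time. All 33 had a row of their own among the 35022 genes counted for PD03 removal and among the 48709 counted for CHIRON removal. By the parental copy that is known to be active, 21 are expressed from the paternal copy and 9 from the maternal copy. For 3 (Grb10, Gnas and Ube3a) parental expression depends on the tissue. They lie in 18 clusters or isolated domains on 10 chromosomes, so neighbours that share a control region are not independent of each other. The counts are summed over both parental copies and do not show which copy was transcribed.

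Imprinted genes are expressed from a chosen parental copy because DNA methylation, set in the germ line at imprinting control regions, marks the paternal and the maternal chromosome differently. The zinc-finger protein ZFP57 binds methylated control regions and recruits TRIM28, SETDB1 and DNMT1, which keep the mark through cell division, while CTCF, long non-coding RNAs and enhancers read it out over whole clusters. In mESCs many of these genes are active, and long culture under inhibition of MEK is known to erode methylation at some control regions. Many of the proteins act in fetal growth, in the placenta and in the brain.

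E14 cells of the strain given as 129m wt were seeded on fibronectin-coated StemBond hydrogels, soft or stiff, and kept for 12 h in 2i + LIF with 1 µM PD03, which inhibits MEK, and 3 µM CHIRON, which inhibits GSK3. RNA was taken at that point (0 h) and again 2 h or 12 h into a new medium, in a first experiment to CHIRON + LIF (PD03 removal) and in a second to PD03 + LIF (CHIRON removal). LIF was present in every group, and the 0 h groups held both inhibitors. There were thus 6 groups in an experiment, each with 2 libraries except stiff at 2 h of CHIRON removal, where 1 of the 2 libraries, with a total of only 171333 counts, was left out. The labels do not say that the 2 libraries of a group came from separate cultures, so p-values measure the spread between these libraries, which may be technical, and in bulk RNA fewer cells with a transcript and less transcript in each cell cannot be told apart.

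The libraries held 16222196 to 26442153 counts in PD03 removal and 19393787 to 31111260 in the 11 libraries of CHIRON removal, and the imprinted genes took 0.204% to 0.250% and 0.179% to 0.224% of them. Levels are given as CPM, the counts of a gene scaled to a common library size after TMM normalisation within an experiment. All 7 markers of embryonic stem cells were above 1 CPM, with a summed level of 3220 to 3787 CPM in PD03 removal and 2906 to 3746 CPM in CHIRON removal. At 12 h their sum was 3220 to 3317 CPM against 3508 to 3683 CPM at 0 h in PD03 removal, and 3526 to 3746 against 3050.0 to 3198 in CHIRON removal. Markers of primitive endoderm summed to 1.72 to 3.99 CPM and 4.01 to 6.79 CPM, with 2 and 4 of 6 genes reaching 1 CPM in a library, and markers of fibroblasts summed to 1.24 to 2.34 CPM and 3.28 to 5.67 CPM, with 1 and 2 of 7 reaching it. Of the 6 trophoblast markers 4 reached 1 CPM, and they summed to 52.4 to 62.4 CPM and 58.9 to 73.1 CPM. In PD03 removal 28 of the 33 imprinted genes passed the filter on low counts and were tested among 18493 genes, and in CHIRON removal 32 passed among 20031. Every adjusted p in the text, unless DESeq2 is named, is from the quasi-likelihood test of edgeR with Benjamini-Hochberg adjustment over all genes tested, and fold changes are on the log2 scale.

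The level of the imprinted genes in 2i + LIF spanned several orders of magnitude. Divided by the kilobases of exon of each gene, which turns CPM into RPKM, the highest in PD03 removal was Slc38a4, an amino acid transporter, at 76.2 RPKM as the mean of the 4 libraries at 0 h. It was followed by Impact, a regulator of translation under amino acid shortage, at 56.4 RPKM, the retrogene Mcts2 at 27.3 RPKM and the non-coding RNA Rian at 22.4 RPKM. In CHIRON removal the highest was Plagl1, a zinc-finger transcription factor, at 73.3 RPKM, followed by Slc38a4 at 43.2, Peg10 at 31.8 and Impact at 27.6 RPKM. At the low end were Rasgrf1, a Ras exchange factor of neurons, at 0.00265 and 0.0315 RPKM, and Dlk1, a Notch-like membrane protein, at 0.0204 and 0.0478 RPKM. H19, the non-coding RNA that shares a control region with the growth factor gene Igf2, stood at 0.0814 and 0.0481 RPKM.

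The same cells in the same medium at 0 h did not show the same levels in both experiments. Of the 27 genes tested in both, 4 were at least 2 times higher in CHIRON removal (Gnas, Peg10, Plagl1 and Zim1). In PD03 removal 5 were at least 2 times higher (Impact, Mirg, Peg12, Rian and Ube3a). The share of all genes at least 2 times apart was not worked out, so these counts cannot be called particular to imprinted genes. Plagl1 stood at 80.4 to 91.6 CPM in PD03 removal and 516 to 646 CPM in CHIRON removal, and Peg10 at 38.5 to 48.7 and 182 to 249.9 CPM. In the other direction, Rian stood at 389 to 429 and 84.4 to 97.9 CPM, and Peg12 at 7.15 to 9.65 and 0.663 to 1.29 CPM. Igf2, which was below the filter in PD03 removal with 2 to 8 counts a library, had 53 to 155 counts in CHIRON removal. The experiments were counted into separate tables and scaled separately, so these levels are set side by side with no test, and a difference between the experiments in culture, library preparation or counting cannot be told apart from a difference between the cells.

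**Figure D1:**
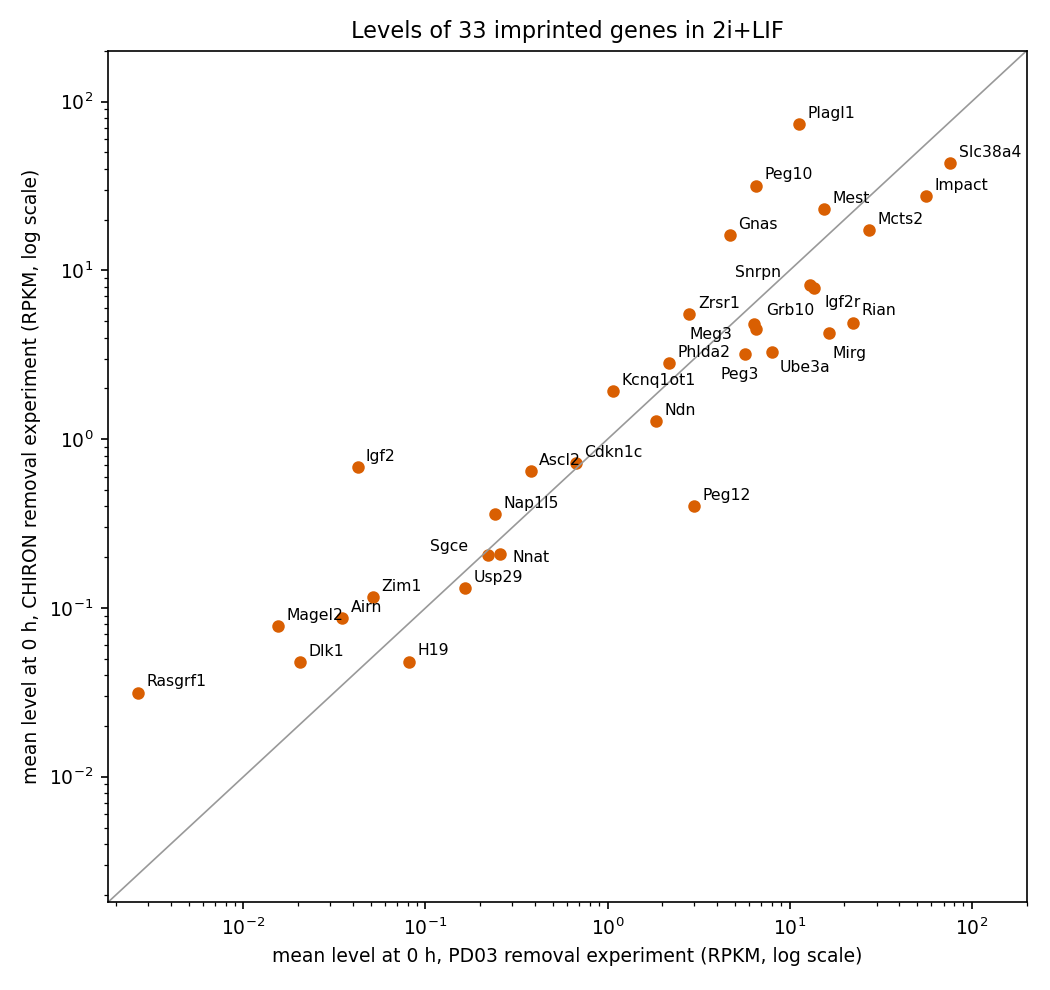
Mean level of each of the 33 imprinted genes in the 4 libraries at 0 h of PD03 removal (horizontal axis) and of CHIRON removal (vertical axis), in RPKM on log scales, with a line where both are equal. Plagl1, Peg10, Gnas and Igf2 lie above the line and Peg12, Rian, Mirg and Ube3a below it.

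For Meg3, Mest and Plagl1, which changed at 12 h of 1 or the other removal, the stretch of 250 bases before the start of transcription is printed because it holds the motif TGCCGC, the core of the sequence that ZFP57 binds when methylated. It was searched on both strands (GCGGCA on the other), the ends of both forms can overlap each other but do not in these stretches, and it is set in capitals in sequences from RefSeq on build GRCm38.p6, all on the plus strand and written 5' to 3'. The stretches are chr12:109540746-109540995 for Meg3, chr6:30737803-30738052 for Mest and chr10:13090582-13090831 for Plagl1, and each ends at the base before the start.
Meg3: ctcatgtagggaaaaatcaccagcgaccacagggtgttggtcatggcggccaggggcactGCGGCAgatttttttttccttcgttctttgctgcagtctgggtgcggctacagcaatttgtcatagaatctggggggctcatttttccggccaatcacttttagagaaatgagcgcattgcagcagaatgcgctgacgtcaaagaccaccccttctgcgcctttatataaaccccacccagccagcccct
Mest: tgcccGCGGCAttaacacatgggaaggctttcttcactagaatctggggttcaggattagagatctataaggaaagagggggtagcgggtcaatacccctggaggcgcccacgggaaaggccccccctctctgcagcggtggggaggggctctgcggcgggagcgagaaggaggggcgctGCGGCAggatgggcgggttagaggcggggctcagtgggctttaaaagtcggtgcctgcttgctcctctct
Plagl1: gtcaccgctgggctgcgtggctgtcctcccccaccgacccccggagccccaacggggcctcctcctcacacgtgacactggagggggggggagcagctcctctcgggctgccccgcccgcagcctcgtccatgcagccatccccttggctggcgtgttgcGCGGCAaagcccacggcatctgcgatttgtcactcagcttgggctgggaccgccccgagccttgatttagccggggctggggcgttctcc
The match starts 190 bases before the start of Meg3 and 90 bases before that of Plagl1, and Mest has 2 matches, 245 and 70 bases before its start. The stretches hold 10, 14 and 19 CpG dinucleotides. RefSeq sequence from 250 bases before to 50 after a start was at hand for 28 of the 33 genes, but not for Peg10, Sgce, H19, Cdkn1c and Impact, and 10 of the 28 (35.7%) held the motif in a window, against 13.05% of 27025 genes. Since genes differ in their number of windows, the shares by window were 25.6% of 43 and 11.6% of 32851. The motif holds a CpG, and CpG content was not matched between these windows and those of all genes. What part it has in the shares was not tested. Of the other genes that changed at 12 h, Grb10, Mcts2, Nnat and Snrpn held the motif in a window. Gnas, Kcnq1ot1, Mirg, Peg3, Peg12, Rian, Slc38a4 and Zrsr1 did not. Igf2, Nap1l5 and Zim1, which gave no call, held it. A match is a description of the sequence, and its methylation or binding was not measured here.

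After 12 h without PD03 the imprinted genes that changed were nearly all higher. On soft hydrogels 9 of the 28 tested rose (Gnas, Grb10, Meg3, Mest, Mirg, Nnat, Peg10, Rian and Snrpn) and 0 fell, where 11.2% of all genes tested rose and 12.3% fell. On stiff hydrogels 9 rose (Grb10, Kcnq1ot1, Mcts2, Meg3, Mest, Mirg, Peg10, Rian and Snrpn) and 1, Slc38a4, fell, beside 15.5% and 16.4% of all genes. The median change of the 28 was 0.12 on soft and 0.25 on stiff hydrogels, and that of all genes -0.0013 and -0.00084. At 12 h 1 of the 7 markers of embryonic stem cells was higher and 3 were lower on both substrates, and of 4 trophoblast markers tested 2 were higher on soft, and 2 higher and 2 lower on stiff hydrogels. Of the other markers Gata6 (primitive endoderm) was higher on soft and Thy1 (fibroblast) higher on stiff hydrogels. Their part in the changes was not tested. By parental copy, 4 of 16 tested paternally expressed genes rose on soft and 5 on stiff hydrogels, 3 of 9 maternally expressed genes rose on both, and of the 3 genes with tissue-dependent expression 2 rose on soft and 1 on stiff hydrogels. The 3 maternally expressed genes are Meg3, Rian and Mirg, which lie in 1 cluster.

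**Figure D2:**
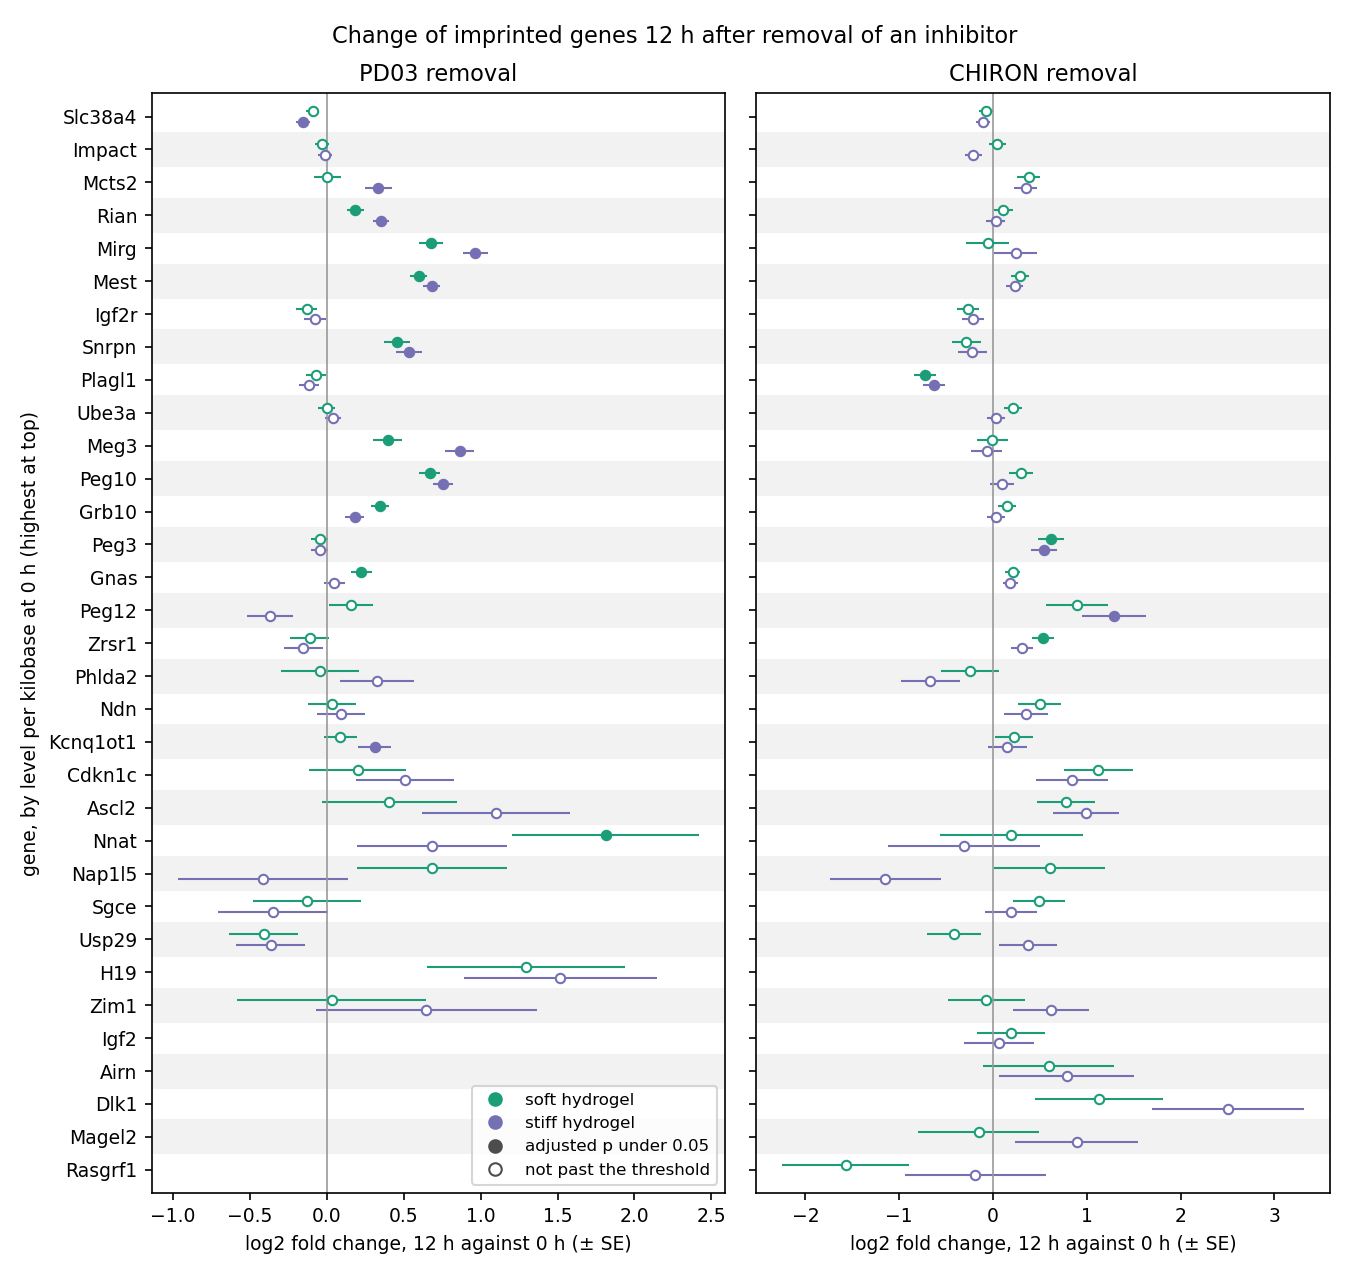
Log2 fold change between 12 h and 0 h for each imprinted gene that passed the filter, on soft (green) and stiff (purple) hydrogels, after removal of PD03 (left) or CHIRON (right). Points are fitted values with bars of 1 SE, filled where the adjusted p was under 0.05, and genes are ordered by RPKM at 0 h of PD03 removal. On the left Peg10, Mest, Snrpn, Meg3, Mirg and Rian are filled and above 0 on both substrates, and on the right Plagl1 is below 0 and Peg3 above it.

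Peg10, a gene derived from a retrotransposon that the placenta needs, was the imprinted gene that responded at 2 h. On soft hydrogels it read 38.5 and 38.9 CPM at 0 h, then 54.5 and 54.2 at 2 h, then 64 and 59.2 at 12 h. The stiff libraries read 48.1 and 48.7 CPM at 0 h, then 59 and 69 at 2 h, then 82.5 and 81.1 at 12 h. At each time both libraries lay above both libraries of the time before on soft hydrogels, and the same held on stiff hydrogels. At 2 h Peg10 was the 1 gene of 28 that rose on soft hydrogels, beside 0.784% of all genes, with a log2 fold change of 0.49 ± 0.07 (SE, adjusted p = 0.000126). It was also the 1 gene of 28 on stiff hydrogels, beside 1.25% of all genes, with 0.40 ± 0.07 (SE, adjusted p = 0.000525). Without the second stiff library at 2 h this latter change was 0.28 with an adjusted p of 0.0585. By 12 h the change was 0.67 ± 0.07 (SE, adjusted p = 6.89e-08) on soft and 0.76 ± 0.07 (SE, adjusted p = 1.96e-09) on stiff hydrogels. Sgce, the epsilon-sarcoglycan gene that shares a promoter region with Peg10 and is transcribed away from it, was low, at 0.981 to 3.62 CPM, and its 12 h values were -0.13 ± 0.35 and -0.35 ± 0.36 (SE), neither past the threshold.

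Peg10 also stood apart between the substrates. This was known from earlier results of these same data, so the call below is not independent support. The soft libraries lay below the stiff libraries at each of the 3 times of PD03 removal. Its difference, soft minus stiff, was -0.32 ± 0.07 at 0 h, -0.23 ± 0.07 at 2 h and -0.41 ± 0.07 (SE) at 12 h, with adjusted p of 0.263, 0.335 and 0.00397. Only the last passed, which made Peg10 1 imprinted gene of 28 beside 0.416% of all genes. That call was lost without the second soft library at 12 h (adjusted p = 0.0984) and without the first or the second stiff library (0.105 and 0.0536), while the difference lay between -0.46 and -0.35 in all settings run. The response of Peg10 did not differ between substrates past the threshold, with 0.09 ± 0.10 at 2 h and -0.09 ± 0.10 (SE) at 12 h. In CHIRON removal, where Peg10 was several times more abundant, the 0 h libraries of both substrates overlapped (182 and 218 CPM at 0 h on soft and 198 and 249.9 CPM at 0 h on stiff hydrogels) and the difference at 12 h was 0.04 ± 0.13 (SE, adjusted p = 1).

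Mest and Snrpn rose at 12 h by similar amounts on both substrates. Mest, which encodes an enzyme of the hydrolase fold and is strongly expressed in mesoderm, read 62.2 and 57.6 CPM at 0 h, then 60.2 and 62.8 at 2 h, then 92.8 and 88.4 at 12 h on soft hydrogels. On stiff hydrogels Mest read 64.2 and 60.3 CPM at 0 h, then 71.5 and 69.2 at 2 h, then 100.1 and 99.3 at 12 h. Both 12 h libraries were above all the earlier ones on each substrate, and the changes were 0.60 ± 0.06 (SE, adjusted p = 2.31e-08) and 0.68 ± 0.06 (SE, adjusted p = 9.09e-10). The gene Copg2, which encodes a coat protein of transport vesicles and ends in the 3' end of Mest on the other strand, fell by 0.21 and 0.40 on the log2 scale over the same time (adjusted p = 0.00712 and 5.76e-06). It shares 912 exonic bases with Mest, 23.1% of the exons of Mest, and since the strand setting of the counting is not given in the sources used here, counts from this stretch cannot be assigned.

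Snrpn, which encodes the splicing protein SmN of neurons, read 27.1 and 27.4 CPM at 0 h, then 32.2 and 29.1 at 2 h, then 38 and 36.9 at 12 h on soft hydrogels. Stiff hydrogels gave 31.2 and 26.3 CPM at 0 h, then 31.7 and 29.7 at 2 h, then 40.1 and 43 at 12 h. Again the 12 h libraries were above all others of their substrate, and the changes were 0.46 ± 0.08 (SE, adjusted p = 0.000245) and 0.54 ± 0.08 (SE, adjusted p = 1.95e-05). Snrpn shares 589 exonic bases with Gm38393, 27.3% of its exons, and 216 with Snurf, so reads there cannot be assigned to 1 of them. Other genes of the Snrpn cluster did not pass. Ndn, of the MAGE family, read 5.04 to 8.37 CPM over the 12 libraries, with changes of 0.03 ± 0.16 and 0.09 ± 0.16 (SE), and Ube3a, a ubiquitin ligase, read 157 to 181 CPM, with 0.00 ± 0.05 and 0.04 ± 0.05 (SE). Peg12, a relative of the GSK3-binding FRAT proteins, read 6.09 to 9.65 CPM and its values pointed up on soft (0.16 ± 0.14) and down on stiff hydrogels (-0.37 ± 0.15, SE, adjusted p = 0.469 and 0.0612). Magel2 had at most 5 counts in a library and was not tested.

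**Figure D3:**
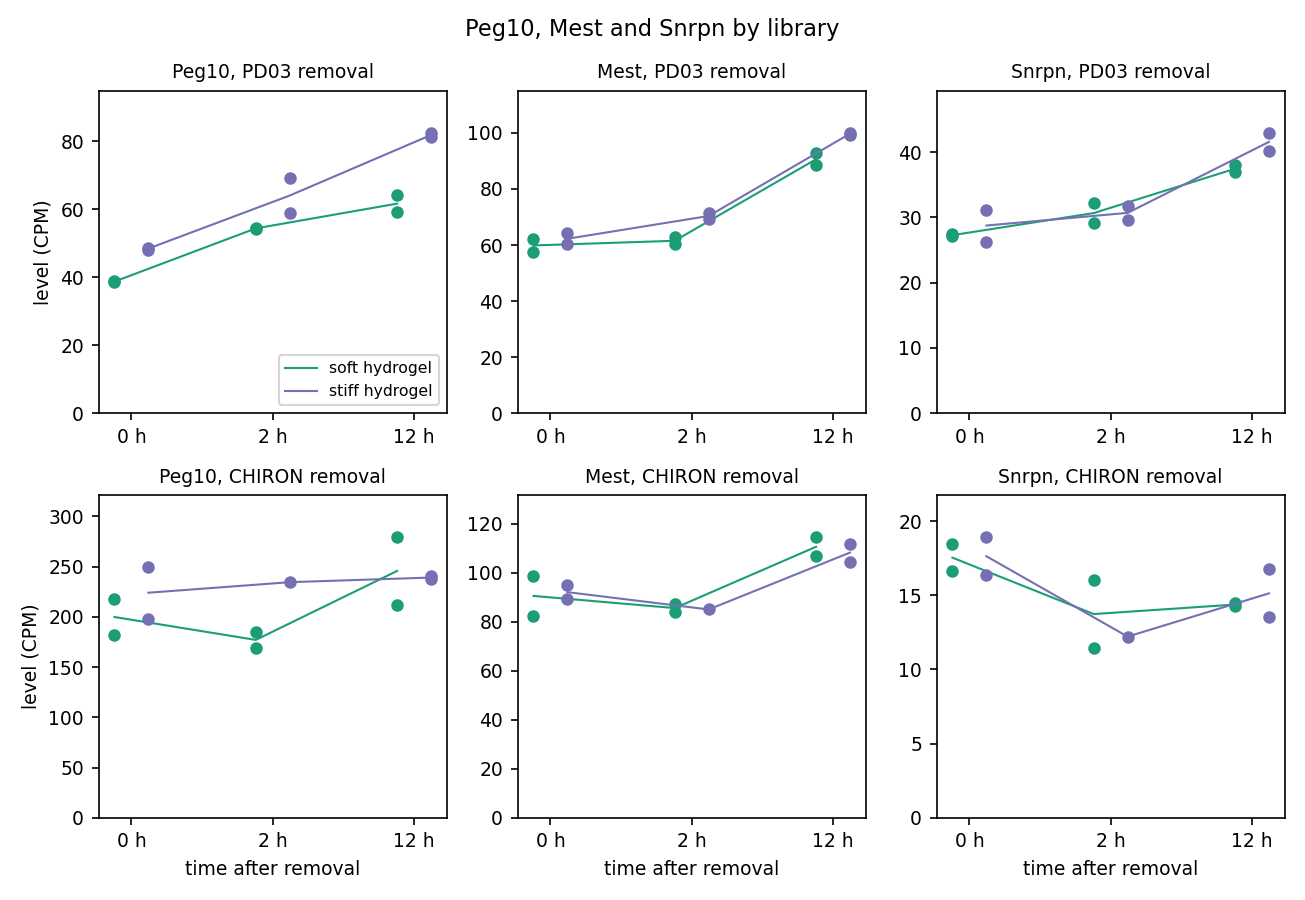
Level of Peg10, Mest and Snrpn in each library (points, CPM) at 0 h, 2 h and 12 h on soft (green) and stiff (purple) hydrogels, after removal of PD03 (top) or CHIRON (bottom), with lines through the group means and vertical axes from 0. In the top row all 12 h points lie above the 0 h points of their substrate, and Peg10 lies lower on soft than on stiff hydrogels at every time.

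The maternally expressed RNAs of the Dlk1/Meg3 cluster on chromosome 12 rose together at 12 h. Meg3, Rian and Mirg are long non-coding RNAs transcribed in the same direction from neighbouring loci, and Rian and Mirg are hosts of small nucleolar RNAs and microRNAs. Meg3 read 144 and 114 CPM at 0 h, then 148 and 113 at 2 h, then 179 and 160.3 at 12 h on soft hydrogels. Its stiff libraries read 115 and 102 CPM at 0 h, then 113 and 121 at 2 h, then 189.9 and 205 at 12 h. The 12 h libraries were the highest on both substrates, but on soft hydrogels the replicates at 0 h and at 2 h lay far apart from each other. The change of Meg3 was 0.40 ± 0.09 (SE, adjusted p = 0.00287) on soft and 0.86 ± 0.09 (SE, adjusted p = 9.89e-08) on stiff hydrogels. The value on soft hydrogels fell to 0.24 with an adjusted p of 0.113 without the second soft library at 0 h, and DESeq2 gave it an adjusted p of 0.0682.

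Mirg read 134 and 120.1 CPM at 0 h, then 135 and 105 at 2 h, then 214 and 192 at 12 h on soft and 117 and 106 CPM at 0 h, then 123 and 112 at 2 h, then 211 and 225 at 12 h on stiff hydrogels. Both 12 h libraries were far above all others on each substrate, with changes of 0.68 ± 0.08 (SE, adjusted p = 5.08e-07) and 0.97 ± 0.08 (SE, adjusted p = 7.93e-10). Rian, the most abundant imprinted transcript of this experiment in CPM, read 429 and 403 CPM at 0 h, then 433 and 403 at 2 h, then 493 and 453 at 12 h on soft hydrogels. On stiff hydrogels Rian read 411 and 389 CPM at 0 h, then 409 and 403 at 2 h, then 486 and 537 at 12 h. Its 12 h libraries were the highest of each substrate, with changes of 0.19 ± 0.05 (SE, adjusted p = 0.0135) and 0.35 ± 0.05 (SE, adjusted p = 1.72e-05), the former lost without the second soft library at 0 h (adjusted p = 0.141) or the first at 12 h (0.177). The values of the 3 RNAs were larger on stiff than on soft hydrogels, but no difference in response passed the threshold, except that of Meg3 with no filter on low counts. That of Meg3, soft minus stiff, was -0.47 ± 0.13 (SE, adjusted p = 0.669, unadjusted p = 0.00164). Meg3 shares 1228 exonic bases with Gm26906 on the other strand, 6.79% of its exons.

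Of the paternally expressed genes of this cluster, Dlk1 was too low to test and Dio3 fell. Dlk1 had 0 to 9 counts a library and was not tested in PD03 removal. Its mean level was 0.139 CPM at 0 h and 0.383 CPM at 12 h on soft hydrogels. On stiff hydrogels it was 0.092 CPM at 0 h and 0.419 CPM at 12 h. Dio3, which encodes the deiodinase that inactivates thyroid hormone, was not among the 33 genes but lies at the far end of the cluster and passed the filter. It fell from 3.53 ± 0.0251 to 1.67 ± 0.504 CPM (SD, n = 2) on soft hydrogels, a change of -1.07 ± 0.24 (SE, adjusted p = 0.00196), and from 2.94 ± 0.0692 to 0.66 ± 0.223 CPM on stiff hydrogels, a change of -2.12 ± 0.31 (SE, adjusted p = 7.42e-06).

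**Figure D4:**
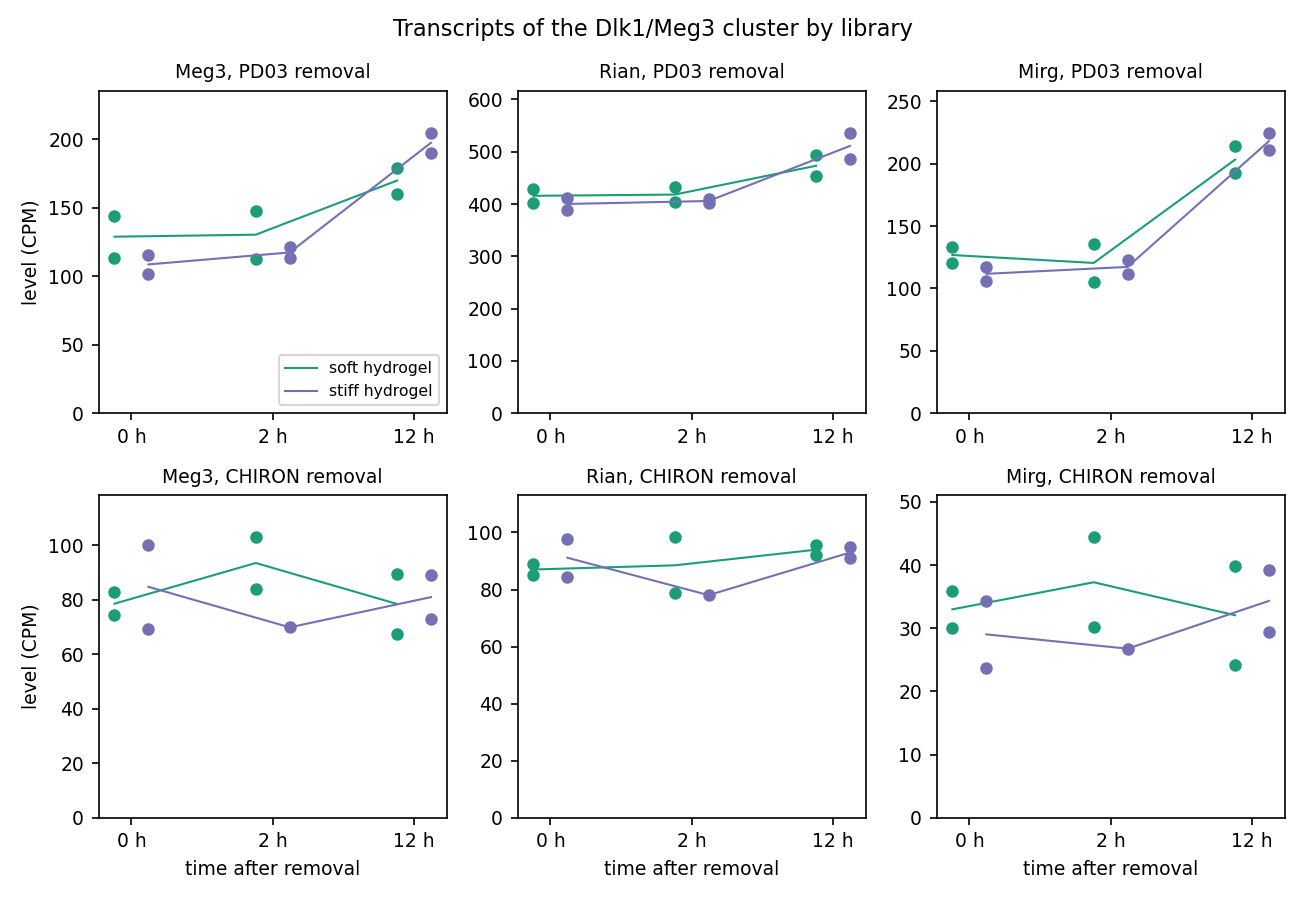
Level of Meg3, Rian and Mirg in each library (points, CPM) at 0 h, 2 h and 12 h on soft (green) and stiff (purple) hydrogels, after removal of PD03 (top) or CHIRON (bottom), with lines through the group means and vertical axes from 0. In the top row the 12 h points lie above the 0 h points, and in the bottom row the 12 h points overlap with the 0 h points for Meg3 and Mirg.

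The remaining changes at 12 h of PD03 removal were smaller or rested on single libraries. Grb10, an adaptor that damps signalling of the insulin and IGF receptors, read 56 and 55.4 CPM at 0 h, then 60.4 and 57.7 at 2 h, then 72.5 and 69.2 at 12 h on soft hydrogels. On stiff hydrogels it read 59.5 and 60.7 CPM at 0 h, then 52.2 and 58.3 at 2 h, then 69.3 and 67 at 12 h. The 12 h libraries were the highest on both, with changes of 0.35 ± 0.06 (SE, adjusted p = 0.000128) and 0.18 ± 0.06 (SE, adjusted p = 0.023). The latter call was lost without any 1 of the 4 stiff libraries compared (adjusted p from 0.0531 to 0.149) and with DESeq2 (0.0572) or with no filter on low counts (0.0656). Gnas, which encodes the stimulatory G protein subunit and several imprinted transcripts from alternative promoters, read 50.6 and 50.4 CPM at 0 h, then 51 and 51.1 at 2 h, then 62.1 and 56 at 12 h on soft and 55.1 and 53.1 CPM at 0 h, then 54.7 and 61.9 at 2 h, then 57.5 and 54.3 at 12 h on stiff hydrogels. It rose by 0.23 on soft hydrogels only just beyond the spread (adjusted p = 0.0149), a call lost without either soft library at 0 h (0.0552 and 0.0710) or without the first at 12 h (0.203), and its libraries overlapped on stiff hydrogels (0.05 ± 0.07, SE). The antisense RNA Nespas of the same locus rose by 0.33 and 0.80 on the log2 scale (adjusted p = 0.0208 and 1.48e-06), and counts of overlapping exons of Gnas and Nespas cannot be assigned.

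Kcnq1ot1, the antisense RNA that silences the Kcnq1 cluster on the paternal chromosome, read 114 and 84.4 CPM at 0 h, then 106 and 119 at 2 h, then 102 and 109 at 12 h on soft hydrogels. The stiff libraries read 101 and 102 CPM at 0 h, then 88.3 and 104 at 2 h, then 107 and 146 at 12 h. The change on stiff hydrogels, 0.31 ± 0.11 (SE, adjusted p = 0.0274), rested on the second library at 12 h, without which it was 0.08 (adjusted p = 0.663). The call was also lost without the first or the second library at 0 h (0.0904 and 0.102), and DESeq2 gave an adjusted p of 0.241. Cdkn1c, Phlda2 and Ascl2, maternally expressed genes of the cluster, were at 0.882 to 2.01, 2.02 to 3.51 and 0.296 to 1.25 CPM and none passed at 12 h. Ascl2, a transcription factor of the trophoblast, came nearest on stiff hydrogels with 1.10 ± 0.48 (SE, adjusted p = 0.0815).

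Mcts2, a retrogene copy of Mcts1 inside an intron of H13, read 25.8 and 24.8 CPM at 0 h, then 24.2 and 23 at 2 h, then 24.8 and 25.8 at 12 h on soft hydrogels. Stiff hydrogels gave 25.2 and 24 CPM at 0 h, then 29.7 and 25.7 at 2 h, then 32.6 and 29.4 at 12 h. The 12 h libraries were above those at 0 h on stiff hydrogels only, where the change was 0.34 ± 0.09 (SE, adjusted p = 0.00434), against 0.00 ± 0.09 (SE) on soft hydrogels, and the difference between the substrates had an adjusted p of 0.75. The host H13 changed by 0.07 ± 0.09 and the parent gene Mcts1 by 0.06 ± 0.11 (SE) on stiff hydrogels, neither past the threshold. The call for Mcts2 was lost without the second stiff library at 0 h (adjusted p = 0.0540) or the first at 12 h (0.0911).

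Nnat, which encodes neuronatin, a small membrane protein of neurons and endocrine cells, rests on few counts. It had 6 and 5 counts at 0 h, then 6 and 16 at 2 h, then 25 and 10 at 12 h on soft hydrogels. On stiff hydrogels it had 9 and 25 counts at 0 h, then 10 and 16 at 2 h, then 19 and 20 at 12 h. Its rise on soft hydrogels, 1.81 ± 0.61 (SE, adjusted p = 0.0315), was lost without either soft library at 0 h (adjusted p = 0.111 and 0.132) or without the first at 12 h (0.451). Blcap, the gene in whose intron Nnat lies, rose on both substrates, by 0.52 ± 0.11 (SE, adjusted p = 0.00065) and 0.35 ± 0.11 (SE, adjusted p = 0.0135).

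Slc38a4 was the gene that fell. It read 315 and 323 CPM at 0 h, then 329.7 and 323 at 2 h, then 295 and 304 at 12 h on soft hydrogels. Its stiff libraries read 327 and 333 CPM at 0 h, then 312 and 323 at 2 h, then 299 and 294 at 12 h. The 12 h libraries were the lowest on both substrates, and the change was -0.16 ± 0.04 (SE, adjusted p = 0.00875) on stiff hydrogels and -0.09 ± 0.04 (SE, adjusted p = 0.144) on soft hydrogels. On stiff hydrogels it no longer passed without the second library at 0 h (adjusted p = 0.0743) or at 12 h (0.0702).

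Several abundant imprinted genes did not change past the threshold in PD03 removal. Impact read 286 and 294 CPM at 0 h, then 295 and 284 at 2 h, then 292 and 276 at 12 h on soft and 293 and 283 CPM at 0 h, then 278 and 283 at 2 h, then 285 and 286 at 12 h on stiff hydrogels. Igf2r, the receptor that clears IGF2, read 129.9 and 125 CPM at 0 h, then 126 and 143 at 2 h, then 108 and 124 at 12 h on soft and 121 and 129.6 CPM at 0 h, then 118 and 138 at 2 h, then 121 and 117 at 12 h on stiff hydrogels. Ube3a read 168 and 161 CPM at 0 h, then 181 and 172 at 2 h, then 165 and 164 at 12 h on soft and 168 and 161 CPM at 0 h, then 157 and 177 at 2 h, then 173 and 165 at 12 h on stiff hydrogels. On soft hydrogels both 12 h libraries of Igf2r were its lowest and both 2 h libraries of Ube3a its highest, while otherwise the libraries at 12 h overlapped with earlier ones, and the 12 h changes lay between -0.13 and 0.04.

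Plagl1, Peg3, a zinc-finger protein of growth and maternal behaviour, and Zrsr1, a retrogene copy of the splicing factor gene Zrsr2, did not pass either, with 12 h changes of -0.07 ± 0.06 and -0.12 ± 0.06 for Plagl1, -0.05 ± 0.05 and -0.05 ± 0.06 for Peg3, and -0.11 ± 0.13 and -0.15 ± 0.13 (SE) for Zrsr1 on soft and stiff hydrogels. The low genes gave wide errors. H19 had 1 to 11 counts a library and changes of 1.30 ± 0.65 and 1.52 ± 0.63 (SE, adjusted p = 0.155 and 0.0655). It had 11 and 9 counts at 12 h on soft and 11 and 10 on stiff hydrogels, and at most 8 in any earlier library. H19 thus passed the filter only through its 12 h libraries. The direction of its changes was partly set by the filter, and no conclusion is drawn from it. Usp29, Zim1 and Nap1l5 had 32 to 79, 0 to 14 and 6 to 19 counts a library, and none passed. The 5 genes below the filter were Airn with 0 to 5, Dlk1 with 0 to 9, Igf2 with 2 to 8, Magel2 with 0 to 5 and Rasgrf1 with 0 to 2 counts a library, and none was tested. Dlk1 had 8 and 7 counts at 12 h against 2 and 4 at 0 h on soft hydrogels, and 5 and 9 against 3 and 1 on stiff hydrogels.

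Apart from Peg10 at 12 h, no imprinted gene passed between soft and stiff hydrogels in PD03 removal by edgeR with the filter on low counts. With no filter Meg3 and Peg10 passed at 0 h, Kcnq1ot1 at 2 h, and Kcnq1ot1, Meg3 and Peg10 at 12 h, and Meg3 passed for the difference in response at 12 h. At 0 h 0 of 28 passed beside 0% of all genes, with 5 at an unadjusted p under 0.05 and 0 by DESeq2. At 2 h 0 passed beside 0.0649% of all genes, with 7 at an unadjusted p under 0.05 and 0 by DESeq2. For the difference in response between substrates 0 passed at 2 h beside 0.00541% of all genes and 0 at 12 h beside 0%, with 2 and 5 at an unadjusted p under 0.05 and 0 by DESeq2 in both. The smallest adjusted p at 12 h was that of Meg3, 0.669. The percentages of all genes are for adjusted p in the fit with the filter. No share of all genes is given for the fit with no filter, so the calls with no filter have nothing to be set against. No share of all genes was worked out at an unadjusted p under 0.05, so the unadjusted counts have nothing to be set against.

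After removal of CHIRON the imprinted genes that passed were Plagl1, which fell, and Peg3, Zrsr1 and Peg12, which rose. At 2 h 0 of 32 passed on soft hydrogels by edgeR, beside 0.12% of all genes, and 0 on stiff hydrogels, beside 0.025%. DESeq2 called 0 on both. At an unadjusted p under 0.05 there were 3 and 2, with Snrpn and Zrsr1 among them on both substrates. No share of all genes was worked out at that threshold. At 12 h 2 rose (Peg3 and Zrsr1) and 1 fell (Plagl1) on soft hydrogels, beside 6.16% and 4.88% of all genes. On stiff hydrogels 2 rose (Peg12 and Peg3) and 1 fell (Plagl1), beside 5.63% and 4.93%. The median change of the 32 was 0.20 and 0.17, and that of all genes -0.0025 and -0.0028. Of the markers of embryonic stem cells 3 were higher and 1 lower on soft and 5 higher on stiff hydrogels, and of 5 trophoblast markers tested Krt8 was higher and Cdx2 lower on both, and their part was not tested. The 4 genes called on either substrate are all paternally expressed, as are 21 of the 32 tested. Adding the library that was left out ended every call of this experiment at 12 h (adjusted p of 1.00 after rounding), while the log2 fold changes were then 0.62, 0.54 and -0.72 for Peg3, Zrsr1 and Plagl1 on soft and 1.30, 0.56 and -0.62 for Peg12, Peg3 and Plagl1 on stiff hydrogels. The spread between replicates was wider in this experiment, with a biological coefficient of variation of 0.0949 against 0.0433 in PD03 removal.

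Plagl1 showed the clearest fall. It read 539.8 and 591 CPM at 0 h, then 589 and 515 at 2 h, then 375 and 307 at 12 h on soft hydrogels. On stiff hydrogels it read 516 and 646 CPM at 0 h, then 632 at 2 h, then 368 and 382 at 12 h. The 4 libraries at 12 h, from 307 to 382 CPM, lay below the 7 others, from 515 CPM upwards. The changes were -0.73 ± 0.12 (SE, adjusted p = 0.000693) and -0.63 ± 0.12 (SE, adjusted p = 0.00216), and both passed whichever of the 11 libraries was left out.

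Peg3 read 36.3 and 46 CPM at 0 h, then 43.5 and 40.4 at 2 h, then 67.5 and 58.5 at 12 h on soft hydrogels. The stiff libraries read 36.7 and 50.5 CPM at 0 h, then 52.4 at 2 h, then 67 and 60.3 at 12 h. All 12 h libraries were above all earlier ones, and the changes were 0.62 ± 0.14 (SE, adjusted p = 0.00881) and 0.55 ± 0.14 (SE, adjusted p = 0.0192). The call on soft hydrogels was lost without the first library at 0 h (0.45, adjusted p = 0.144) or at 12 h (0.0801), and that on stiff hydrogels without the first library at 0 h (0.34, adjusted p = 0.169) or either at 12 h (0.148 and 0.0537). Usp29, which starts beside Peg3 and runs the other way, read 1.43 to 3.79 CPM and did not pass, with -0.42 ± 0.29 and 0.37 ± 0.31 (SE). Zim1, the maternally expressed neighbour, read 0.59 to 1.57 CPM, with -0.07 ± 0.41 and 0.62 ± 0.41 (SE).

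Zrsr1 read 23.5 and 25.7 CPM at 0 h, then 36.9 and 29.2 at 2 h, then 34.2 and 37.2 at 12 h on soft hydrogels. Stiff hydrogels gave 23.6 and 26.4 CPM at 0 h, then 33.7 at 2 h, then 29.7 and 32.3 at 12 h. The libraries at 2 h and 12 h were above all those at 0 h on both substrates. Only the change at 12 h on soft hydrogels passed, 0.53 ± 0.12 (SE, adjusted p = 0.00791), and it was lost without the first soft library at 0 h (adjusted p = 0.0989) or the second at 12 h (0.0651). At 2 h its values were 0.42 ± 0.12 and 0.43 ± 0.14 (SE), with adjusted p of 0.315 and 0.766. Commd1, in whose intron Zrsr1 lies and with which it shares 412 exonic bases, changed by -0.15 ± 0.14 on soft hydrogels at 12 h and Zrsr2 by -0.11 ± 0.08 (SE), neither past the threshold.

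Peg12 was low. It had 30 and 30 counts at 0 h, then 23 and 24 at 2 h, then 64 and 43 at 12 h on soft hydrogels. On stiff hydrogels it had 15 and 29 counts at 0 h, then 26 at 2 h, then 54 and 57 at 12 h. All 12 h libraries were above the earlier ones in CPM, at 1.97 to 2.49 CPM against 0.663 to 1.29 CPM at 0 h. The change was 1.29 ± 0.34 (SE, adjusted p = 0.0242) on stiff and 0.90 ± 0.33 (SE, adjusted p = 0.103) on soft hydrogels. On stiff hydrogels the call was lost without the first library at 0 h (adjusted p = 0.189) or either at 12 h (0.0804 and 0.135), and in a fit of only the groups compared (0.0505).

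**Figure D5:**
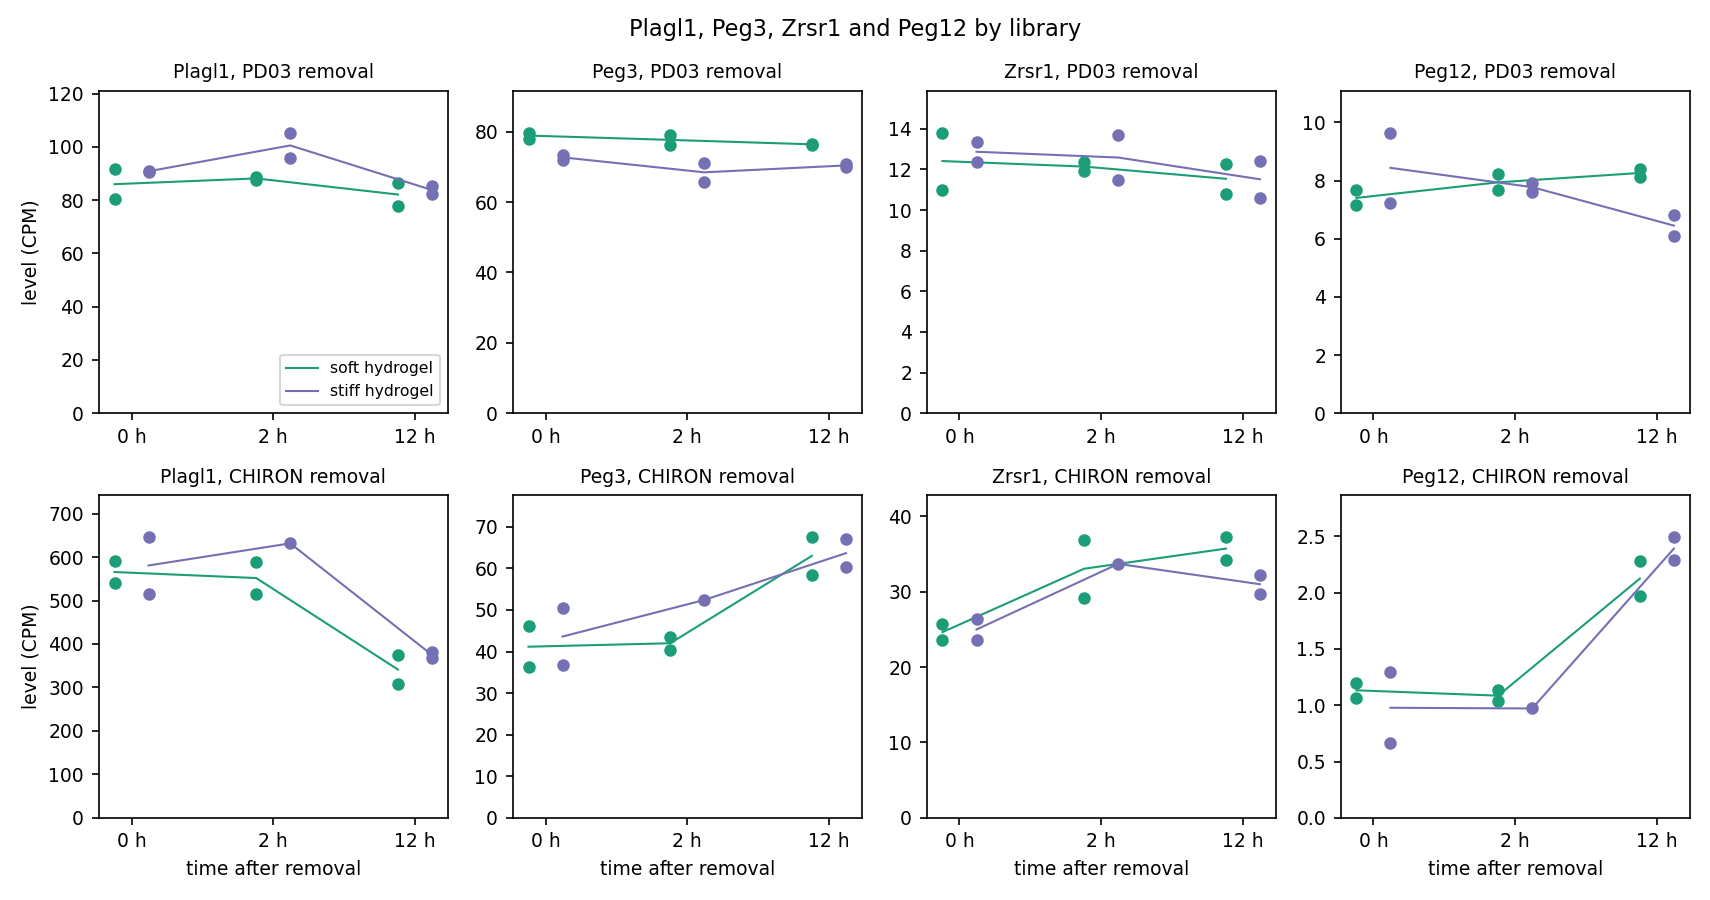
Level of Plagl1, Peg3, Zrsr1 and Peg12 in each library (points, CPM) at 0 h, 2 h and 12 h on soft (green) and stiff (purple) hydrogels, after removal of PD03 (top) or CHIRON (bottom), with lines through the group means and vertical axes from 0. In the bottom row the 12 h points of Plagl1 lie below all others, and those of Peg3 and Peg12 above all others.

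The genes that rose without PD03 gave no call without CHIRON, except that Mest and Peg10 passed at 12 h on soft hydrogels with no filter on low counts. The share of all genes called with no filter is not given here. Peg10 read 182 and 218 CPM at 0 h, then 185 and 169 at 2 h, then 279 and 212 at 12 h on soft and 198 and 249.9 CPM at 0 h, then 234 at 2 h, then 240.3 and 238 at 12 h on stiff hydrogels, and its 12 h changes were 0.30 ± 0.13 and 0.09 ± 0.13 (SE). Mest read 82.4 and 98.7 CPM at 0 h, then 84.1 and 87.1 at 2 h, then 107 and 115 at 12 h on soft and 89.2 and 94.9 CPM at 0 h, then 85 at 2 h, then 112 and 105 at 12 h on stiff hydrogels. Its 12 h libraries were the highest on both, with changes of 0.29 ± 0.09 (SE, adjusted p = 0.0565) and 0.23 ± 0.09 (SE, adjusted p = 0.132). Snrpn read 16.6 and 18.4 CPM at 0 h, then 11.5 and 16 at 2 h, then 14.5 and 14.3 at 12 h on soft and 18.9 and 16.3 CPM at 0 h, then 12.21 at 2 h, then 16.7 and 13.5 at 12 h on stiff hydrogels, with values below 0 at 12 h of -0.29 ± 0.15 and -0.22 ± 0.16 (SE).

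The RNAs of the Dlk1/Meg3 cluster gave no call in CHIRON removal. Meg3 read 82.8 and 74.4 CPM at 0 h, then 84 and 103 at 2 h, then 67.5 and 89.5 at 12 h on soft and 100.2 and 69.3 CPM at 0 h, then 69.9 at 2 h, then 72.8 and 89.1 at 12 h on stiff hydrogels. Mirg read 35.9 and 30.1 CPM at 0 h, then 30.2 and 44.4 at 2 h, then 24.2 and 39.9 at 12 h on soft and 34.4 and 23.7 CPM at 0 h, then 26.8 at 2 h, then 29.5 and 39.2 at 12 h on stiff hydrogels. Rian read 78 to 98.3 CPM over the 11 libraries. The libraries at 12 h overlapped with those at 0 h for Meg3 and Mirg on both substrates, and the 12 h changes of the 3 RNAs lay between -0.07 and 0.24. Dlk1, which passed on stiff hydrogels with no filter on low counts, had 0 to 31 counts a library, with changes of 1.13 ± 0.68 and 2.50 ± 0.81 (SE, adjusted p = 0.347 and 0.0643). Dio3 rose, from 9.89 ± 0.451 to 23.9 ± 0.0801 CPM (SD, n = 2) on soft hydrogels, a change of 1.27 ± 0.17 (SE, adjusted p = 0.000121), and from 9.61 ± 2.78 to 25 ± 2.95 CPM on stiff hydrogels, 1.38 ± 0.17 (SE, adjusted p = 6.86e-05).

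Other genes of CHIRON removal came near the threshold without passing it. Mcts2 read 15.2 and 15.6 CPM at 0 h, then 20.4 and 19.6 at 12 h on soft and 14.8 and 17.6 CPM at 0 h, then 21.6 and 19.6 at 12 h on stiff hydrogels, with all 12 h libraries the higher ones and adjusted p of 0.0568 and 0.0859. Cdkn1c, an inhibitor of cyclin-dependent kinases, read 0.997 and 1.89 CPM at 0 h, then 2.62 and 3.81 at 12 h on soft and 1.1 and 1.87 CPM at 0 h, then 2.93 and 2.4 at 12 h on stiff hydrogels, with no overlap and changes of 1.12 ± 0.37 (SE, adjusted p = 0.0655) and 0.84 ± 0.38 (SE, adjusted p = 0.203). Cdkn1c was singled out after its values were seen, and 30.6% of its exonic bases are shared with Gm44732 on the other strand. Kcnq1ot1 read 167 and 162 CPM at 0 h, then 255 and 128 at 12 h on soft hydrogels, where the 2 libraries at 12 h lay on either side of those at 0 h. The other genes tested were Slc38a4 at 167 to 191, Gnas at 171 to 213, Impact at 123 to 160.4, Igf2r at 54.3 to 81.9, Ube3a at 63.1 to 80.4 and Grb10 at 40.2 to 50.5 CPM over the 11 libraries, and Ndn, Igf2, Phlda2, Sgce, Ascl2, Nap1l5, Magel2, Airn, Nnat and Rasgrf1, each below 10 CPM in every library, and none of them passed. H19, at 0 to 13 counts a library, was not tested.

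Between soft and stiff hydrogels 0 of the 32 genes passed in CHIRON removal by edgeR at 0 h, at 2 h or at 12 h, beside 0% of all genes at each time, with 1, 1 and 0 at an unadjusted p under 0.05 and 0 by DESeq2, while with no filter on low counts 1, Peg10, passed at 2 h. For the difference in response between substrates 0 passed at 2 h and at 12 h, beside 0% of all genes. In both, 0 had an unadjusted p under 0.05 and DESeq2 called 0. No share of all genes is given for unadjusted p or for the fit with no filter in these comparisons.

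The difference between the removals was tested directly, in a joint fit of all 23 libraries, as the 12 h change after PD03 removal minus that after CHIRON removal, averaged over substrates. Of 32 imprinted genes 9 differed, a share close to the 27.7% of all genes tested that did. The difference was above 0 for 6 (Meg3, Mest, Mirg, Peg10, Plagl1 and Snrpn), beside 13.2% of the 21098 genes tested, and below 0 for 3 (Peg12, Peg3 and Zrsr1), beside 14.4%. The largest above 0 were those of Snrpn, 0.73 ± 0.12 (SE, adjusted p = 6.3e-05), Mirg, 0.72 ± 0.18 (SE, adjusted p = 0.00416), and Meg3, 0.65 ± 0.15 (SE, adjusted p = 0.00198). That of Plagl1, 0.57 ± 0.10 (SE, adjusted p = 7.63e-05), sets its fall after CHIRON removal against values after PD03 removal that did not pass. Peg10 differed by 0.50 ± 0.11 (SE, adjusted p = 0.00123) and Mest by 0.36 ± 0.07 (SE, adjusted p = 0.000566). Below 0, Peg12 differed by -1.21 ± 0.22 (SE, adjusted p = 0.000146), Peg3 by -0.64 ± 0.11 (SE, adjusted p = 5.23e-05) and Zrsr1 by -0.57 ± 0.13 (SE, adjusted p = 0.00142). All 9 passed without any 1 of the 23 libraries, with DESeq2, with its size factors, with no filter and with a replicate block, and all but Meg3 and Mirg, which are not protein-coding, could be tested and passed among protein-coding genes. With the library left out added back, an alternative chosen after seeing the data, 4 passed (Peg12, Peg3, Snrpn and Zrsr1), and Meg3 (adjusted p = 0.187), Mest (0.474), Mirg (0.0735), Peg10 (0.673) and Plagl1 (0.818) did not, with differences of 0.65, 0.36, 0.71, 0.50 and 0.57. Each change is taken within its own experiment. The inhibitor removed cannot be told apart from any other difference between the experiments, such as in culture, library preparation or counting.

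Genes that keep imprints were followed from a list of 12, all of which passed the filter in both experiments. At 12 h of PD03 removal 5 rose and 1 fell on soft hydrogels, where 11.2% and 12.3% of all genes did, and 5 rose and 3 fell on stiff hydrogels, beside 15.5% and 16.4%. Zfp57 itself rose from 343 ± 15.5 to 387 ± 19.3 CPM (SD, n = 2) on soft hydrogels, 0.17 ± 0.06 (SE, adjusted p = 0.0232), and from 331 ± 10.3 to 421 ± 12.25 CPM on stiff hydrogels, 0.35 ± 0.06 (SE, adjusted p = 2.82e-05). Dppa3, which protects methylation in the early embryo, fell on both substrates, by 1.39 and 1.58 on the log2 scale (adjusted p = 2.88e-07 and 7.58e-08). Ctcf, Cxxc1, Ehmt2 and Hells rose on both, by 0.15 to 0.39, and Setdb1 and Smchd1 fell on stiff hydrogels. Trim28, Dnmt1 and Uhrf1 did not pass, with changes between -0.01 and 0.07.

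At 12 h of CHIRON removal 2 of the 12 rose (Ehmt2 and Trim28) and 1 fell (Uhrf1) on soft hydrogels, beside 6.16% and 4.88% of all genes, and 1 rose (Ehmt2) on stiff hydrogels, beside 5.63%. Zfp57 gave 0.11 ± 0.10 and 0.13 ± 0.10, and Dppa3 gave -0.15 ± 0.30 and 0.07 ± 0.32 (SE), neither past the threshold. In the joint fit 4 of the 12 differed between the removals, beside 27.7% of all genes, Cxxc1 and Uhrf1 above 0 and Dppa3 and Trim28 below 0. Whether these genes bear on the imprinted genes was not tested.

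A further 37 genes reported as imprinted in some tissue were taken as a list, of which 23 were tested in PD03 removal and 25 in CHIRON removal. At 12 h of PD03 removal 8 of the 23 passed on soft hydrogels (3 rose and 5 fell), beside 23.5% of all genes, and 9 on stiff hydrogels (4 rose and 5 fell), beside 31.9%, with Dio3, Sfmbt2, Qpct, Cd81 and Copg2 lower and Blcap, Gab1 and Nespas higher on both. Sfmbt2, a Polycomb-group gene of the placenta, changed by -0.51 ± 0.09 (SE, adjusted p = 0.000174) and -0.76 ± 0.10 (SE, adjusted p = 9.35e-07). At 12 h of CHIRON removal Dio3 rose and H13 fell on soft hydrogels, and Dio3 and Ddc rose on stiff hydrogels, 2 of 25 on each, beside 11% and 10.6% of all genes. Of 8 host or overlapping genes 6 were tested, and beside Blcap and Copg2 after PD03 removal, Herc3, in which Nap1l5 lies, rose after CHIRON removal by 0.56 ± 0.14 (SE, adjusted p = 0.0184) and 0.57 ± 0.14 (SE, adjusted p = 0.0189), while Nap1l5 gave 0.60 ± 0.59 and -1.15 ± 0.59 (SE). Of 3 parent genes of retrogenes, Zrsr2 rose on soft hydrogels after PD03 removal, 0.22 ± 0.07 (SE, adjusted p = 0.0182). Reads of a retrogene and its parent gene can be hard to separate, and how the counting treated them is not given in the sources used here.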

How the data were processed

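Total RNA of E14 mESCs was depleted of ribosomal RNA and sequenced by the authors. Per the labels, reads were trimmed with Trim Galore, aligned to mm10 with TopHat2 2.1.0 and counted per gene with featureCounts 1.5.0, and the authors deposited raw counts in 1 table for each experiment. The strand setting is not given in the sources used here. The table of PD03 removal held 23 empty lines, 15 identifiers turned into numbers and 12 further columns that belong to no sample given here and were left aside, and that of CHIRON removal held 122 repeated symbols.

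From these counts, genes with at least 10 counts at the median library size in at least 2 libraries and a total of at least 15 were kept, scaled by TMM and tested with the quasi-likelihood test of edgeR 4.0.16 in R 4.3.3, with all 6 groups of an experiment in 1 fit, Benjamini-Hochberg adjustment over all genes tested and a threshold of 0.05. The SE is the log2 fold change divided by the root of its F value. All genes were fitted, although the study tested protein-coding genes with DESeq2, because 6 of the 33 imprinted genes are not protein-coding. A joint fit held the 23 libraries of both experiments. Figures were drawn with matplotlib 3.10.9. Libraries of 16222196 to 31111260 counts limit the precision for genes with few counts, and binomial intervals (exact, 95%) cover counting error only. On simulated counts 200 genes, drawn only from those with higher mean counts, were changed by 1 on the log2 scale at 12 h on soft hydrogels. Of these, 198 were recovered among 18493 genes of PD03 removal and 183 among 20031 of CHIRON removal. Another 7 and 8 genes were called. The recovery does not speak for genes with few counts or for smaller changes.

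The genes and lists were chosen with earlier results of these data known. Values in every library are given for genes that passed in any comparison and for at most 5 other tested genes of high level, and genes of the other lists are named where called or where they belong to a chosen set of hosts, parent genes and regulators. Alternatives were DESeq2 1.42.0, its size factors in edgeR, no filter on low counts, protein-coding genes only, only the groups compared, a replicate block, the library left out added back (for the joint fit chosen after seeing the data), and leaving out each library.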

Additional observations from a re-analysis of the deposited data

Results flagged for a closer look

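The 12 h response differed between the removals for 9 of 32 imprinted genes in the joint fit by edgeR (PD03 removal minus CHIRON removal, log2). That share is close to the 27.7% of all genes tested that differed. The differences were 0.65 for Meg3, 0.36 for Mest, 0.72 for Mirg, 0.50 for Peg10, 0.57 for Plagl1, 0.73 for Snrpn, -1.21 for Peg12, -0.64 for Peg3 and -0.57 for Zrsr1. With the library left out added back 4 of them passed. The inhibitor removed and any other difference between the experiments cannot be told apart.

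The library of stiff hydrogels at 2 h of CHIRON removal that was left out held 171333 counts. For 8 imprinted genes the lower end of the exact 95% interval of their share lay above their share in each of the other 11 libraries. In so small a library a few counts already make a large share. How many of all genes met this rule was not worked out, so the 8 cannot be called particular to imprinted genes. Kcnq1ot1 had 334 counts, 0.195% of the library (exact 95% interval 0.175% to 0.217%), against 0.0125% to 0.0266% elsewhere. Usp29 had 41 counts, 0.0239%, against at most 0.00038%. Rasgrf1 had 10 counts, 0.00584%, and Nnat had 5, 0.00292%. Peg12, Zim1 and Ascl2 had 4 counts each, 0.00233%, and Dlk1 had 3, 0.00175%. Abundant genes were nearly missing there, with 3 counts for Plagl1 and 0 for Impact and Gnas.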

How the results depend on the processing

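No direction of a called gene was reversed in any setting. The main counts were 9 genes at 12 h on soft and 10 on stiff hydrogels of PD03 removal, and 3 and 3 of CHIRON removal. With no filter on low counts, soft against stiff in PD03 removal gave 2 genes at 0 h, 1 at 2 h and 3 at 12 h, the difference in response at 12 h gave 1, CHIRON removal gave 6 at 12 h on soft hydrogels and 1 for soft against stiff at 2 h. With protein-coding genes only, CHIRON removal gave 6 on soft and 5 on stiff hydrogels at 12 h, and with only the groups compared 5 on soft hydrogels. With the library left out added back both counts of CHIRON removal were 0 and 4 of the 9 differences between removals passed (the latter chosen after seeing the data). The share of all genes called in each of these settings is not given here, and why the counts moved was not tested.

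When 1 library was left out, the count ranged from 5 to 10 at 12 h on soft hydrogels of PD03 removal (5 without the second soft library at 0 h), from 0 to 1 at 2 h on stiff hydrogels and from 0 to 1 for soft against stiff at 12 h. In CHIRON removal it ranged from 2 to 5 at 12 h on soft hydrogels (5 without the first or the second stiff library at 0 h) and from 1 to 4 on stiff hydrogels (1 without the first or the second stiff library at 12 h). Of the named changes 34 of 537 leave-one-out values lost their call. Many of the 537 leave out a library that the change does not compare, and all 34 losses came from libraries compared. The share therefore understates how often a call rested on single libraries. How many of all genes were called in each of these fits is not given here, so the ranges cannot be called particular to imprinted genes.

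With a replicate block the counts were the same, except 4 genes at 12 h on soft hydrogels of CHIRON removal, and no named call was lost. Deviations of same-numbered libraries correlated between -0.04 and 0.086 in PD03 removal and between -0.12 and 0.062 in CHIRON removal. These values gave no sign that the numbers pair the libraries, but with so few libraries a group they cannot exclude it. Replicates differed by more than counting noise, with a chi-square per degree of freedom of 2.71 to 4.76 and 6.15 to 61.9.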
